A study of Mus musculus with 3 samples.

Results

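The 10 genes of coronary vessel growth and endothelial identity were examined for FOG2 occupancy in the ventricles of mouse embryos. They comprised 2 signals that heart muscle is known to send to vessels (Vegfa, Angpt1) and 8 genes known from endothelium or endocardium (Kdr, Flt1, Tek, Erg, Ets1, Nfatc1, Npr3, Cdh5). A FOG2 peak was counted for a gene when the gene's body was the nearest protein-coding gene body on mm10, within 100 kb of the peak summit. By this rule 7 of the 10 genes had a peak, and they held 17 of the 6166 summits of the deposited list.

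The tissue was heart ventricle at E12.5, given in days of gestation. All embryos, including those behind the control, were homozygous for a tagged FOG2 allele (Fog2flbio) and for BirA, a bacterial biotin ligase, at Rosa26, per the labels' protocols. The labels' genotype field reads WT for the same samples and their antibody field reads FOG2 for the pulldowns, which differs from a streptavidin pulldown of tagged protein; the protocol is the description used here. There were 2 FOG2 pulldown libraries, each from about 20 ventricles pooled, and 1 input library, whose antibody field reads none. No pulldown from hearts without the tag was among these samples, and the deposited list joins both pulldown replicates. No value below therefore has a spread between replicates, and intervals cover counting error only.

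FOG2, encoded by Zfpm2, has zinc fingers that contact GATA factors, and it modulates what GATA4 does in the heart. Mouse embryos that lack FOG2 are known to fail to form coronary vessels. Coronary vessels grow from endothelial cells that answer to signals from the myocardium: VEGF-A acts through the receptors encoded by Kdr and Flt1, and angiopoietin-1 through TIE2, encoded by Tek. ETS factors such as ERG and ETS1 drive endothelial genes, NFATC1 and NPR3 mark endocardium, and VE-cadherin, encoded by Cdh5, holds endothelial cells together.

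The share of members with a peak was above that of genes at large, but these genes also lie in wide stretches of genome. Of all 21627 protein-coding genes, 13.6% had a summit assigned. A gene's territory is the stretch nearer to it than to any other protein-coding gene, within 100 kb, and all 10 members fell in the 2 widest deciles of territory. In decile 9, 29.2% of genes had a summit, and in decile 10, 52.9%. At those shares, 4.34 of the 10 members would have one, against the 7 counted. The members' territories would hold 5.94 summits at the mean density of 2.52 summits per Mb of territory, against the 17 counted (2.86 times as many). The members were chosen with earlier results of these data known, and this excess was not tested.

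**Figure D1:**
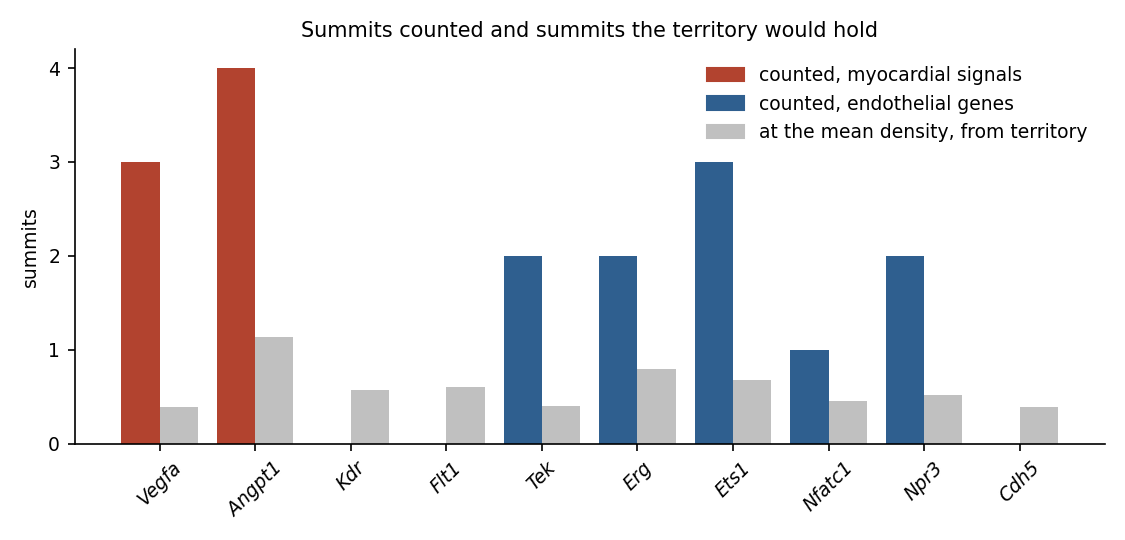
Summits counted at each gene (coloured bars, red for the 2 myocardial signals and blue for the 8 endothelial genes) beside the number that the gene's territory would hold at the mean density over all territories (grey bars). Vegfa and Angpt1 have 3 and 4 summits against 0.391 and 1.14, while Kdr, Flt1 and Cdh5 have none against 0.572, 0.602 and 0.391.

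Vegfa and Angpt1 both had FOG2 summits, 7 in all, where their territories would hold 1.53 (4.58 times as many). The 8 endothelial genes had 10 summits at 5 of the genes, where their territories would hold 4.41 (2.27 times as many). The folds of both groups covered much the same range. The median fold was 5.87 over the 7 summits of the myocardial signals, with a range from 5.35 to 19.9. It was 7.15 over the 10 summits of the endothelial genes, with a range from 5.18 to 17.6. In each group 4 summits lay below 6.39, the median of all peaks. The fold is the authors' ratio of pulldown to control at the summit. With 2 genes against 8 in a pooled list, the difference between the groups was not tested. Both groups were also chosen with earlier results of these data known.

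The highest fold of any member was at Vegfa, whose protein is the main growth signal for endothelial cells. Its peak at chr17:45983106-45983675 was 570 bp wide and 19.9-fold over control. It rested on 31 pulldown fragments over a control level of 0.608. The 95% Poisson interval was 21.1 to 44.0 fragments, or 13.7 to 28.0 in fold with the control level taken as fixed. It ranked 184 of the 6166 peaks by fold, and 97.0% were weaker. Of the 2938 genes with a summit, 95.7% had a lower strongest fold than Vegfa. At 13 of the other 16 member summits the whole fold interval lay below that of this peak.

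All 3 Vegfa summits lay downstream of the gene, which occupies chr17:46016993-46032377 and is transcribed towards lower coordinates. The strongest was 33.6 kb beyond the end of the gene body. The next, at chr17:46000369-46000563, was 16.5 kb beyond it, at 6.93-fold (interval 3.65 to 12.2) on 10 fragments. The nearest, at chr17:46009152-46009357, was 7.77 kb beyond it, at 5.86-fold (interval 3.25 to 9.91) on 12 fragments. None overlapped any annotated gene, and the next protein-coding gene, Mrps18a, was 102 to 128 kb from these summits. Only 2.64% of the genes in the same territory decile held 3 or more summits.

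No peak covered the Vegfa promoter. The 250 bases before the first of 2 listed starts of Vegfa (RefSeq, GRCm38.p6, chr17:46032378-46032627, minus strand) are shown. The strongest summit lay 49.0 kb from this start and 41.8 kb from the other, whose window is not given here. The GATA factor site was searched on both strands as AGATAA or AGATAG or TGATAA or TGATAG, and the capitals mark the single match, which begins 182 bases before the start. A match to one of these was present in 23.6% of 21044 such windows from 17273 protein-coding genes.
Vegfa: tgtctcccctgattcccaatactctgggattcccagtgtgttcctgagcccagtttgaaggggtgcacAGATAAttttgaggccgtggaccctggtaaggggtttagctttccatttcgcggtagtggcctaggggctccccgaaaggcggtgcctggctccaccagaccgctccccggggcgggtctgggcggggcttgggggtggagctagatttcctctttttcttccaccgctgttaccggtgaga

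Angpt1, whose protein steadies new vessels through TIE2, had the most summits of the members, 4. The strongest, at chr15:42768333-42768854, was 9.83-fold (interval 6.11 to 15.1) on 19 fragments, and 81.6% of all peaks were weaker. It lay 91.7 kb outside the gene body (chr15:42424667-42676977), near the limit of 100 kb, inside the long noncoding RNA gene Gm41314. A second summit in the same noncoding gene, 7.37 kb from the first, was 5.44-fold on 9 fragments. The remaining Angpt1 summits lay inside its gene body, at chr15:42438415-42438618 (5.87-fold, 9 fragments) and chr15:42610082-42610251 (5.35-fold, 8 fragments). With genes of any biotype competing, or with a reach of 50 kb, Angpt1 kept only these 2 and its strongest fold was 5.87. In its decile 7.63% of genes held 4 or more summits.

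**Figure D2:**
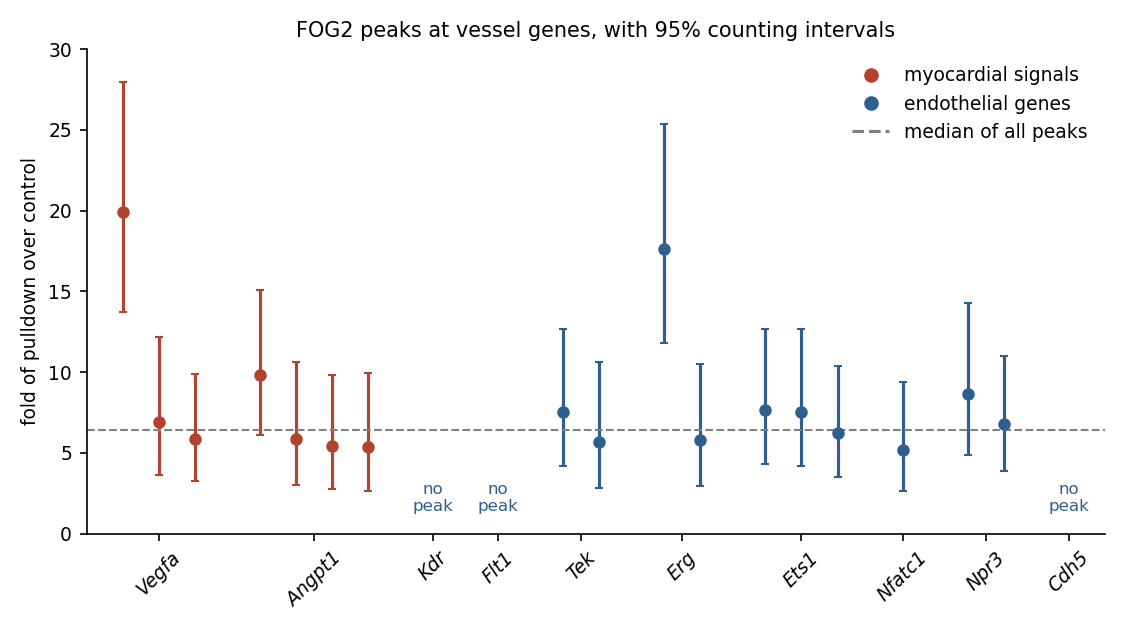
Deposited fold of pulldown over control at each summit of the 10 genes (points), with 95% Poisson counting intervals (bars), red for the myocardial signals and blue for the endothelial genes; the dashed line is the median of all peaks, 6.39. The strongest summits of Vegfa (19.9-fold) and Erg (17.6-fold) stand above the other 15, whose folds run from 5.18 to 9.83, and 3 genes have no peak.

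The receptors of these signals differed from each other. Kdr and Flt1, the receptor genes for VEGF-A, had no summit within 100 kb. The nearest to Kdr (chr5:75932827-75979072) was 170.0 kb away at 6.39-fold, and Kit was the protein-coding gene nearest to it. The nearest to Flt1 (chr5:147561604-147726438) was 546 kb away at 4.08-fold, nearest to Mtus2. Both genes have territories of the widest decile, in which 47.1% of genes had no summit, so that their lack of one is common for genes of this kind. Summits in the list whose control was at the background level began at 5 fragments and 3.78-fold, and weaker occupancy would not be listed.

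Tek, the angiopoietin receptor gene, had 2 summits, both inside its body (chr4:94739086-94874976, plus strand). The stronger, at chr4:94745834-94746019, was 7.54-fold (interval 4.18 to 12.7) on 12 fragments and lay 6.61 kb after the listed start. The other, at chr4:94803208-94803445, was 5.67-fold (2.8 to 10.6) on 8 fragments, 64.0 kb after that start. Their intervals overlapped, and 8.04% of the genes in the same decile held 2 or more summits. Among the members, Angpt1 and Tek thus both had peaks, while Vegfa had peaks and its receptor genes Kdr and Flt1 had none. The VEGF co-receptor genes Nrp1 and Nrp2, which are not members, had peaks (below).

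The 250 bases before the listed start of Flt1 (chr5:147726012-147726261, minus strand) are shown for a VEGF receptor gene without a peak. The annotated gene body extends past this start to chr5:147726438, so the window lies inside the gene body. The capitals mark matches to an ETS factor site, spelled AGGAAG or CGGAAG on either strand. They begin 129 and 53 bases before the listed start, and 41.2% of the windows of all genes held such a match. The window held no GATA match in the spellings above, and neither did the corresponding windows of Kdr, Tek, Erg and Npr3. Those of Kdr and Npr3 also lie inside the gene body, as does most of that of Tek. A T-box site spelled AGGTGT (11.1% of windows) and a TEAD site spelled GGAATG (11.6%) were found in none of the 6 members' windows. No entry was listed for Angpt1, Ets1, Nfatc1 and Cdh5.
Flt1: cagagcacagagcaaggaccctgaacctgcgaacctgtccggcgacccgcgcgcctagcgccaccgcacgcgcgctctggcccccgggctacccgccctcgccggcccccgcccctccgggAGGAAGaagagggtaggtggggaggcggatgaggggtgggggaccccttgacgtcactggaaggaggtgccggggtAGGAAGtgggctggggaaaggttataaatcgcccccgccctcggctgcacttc

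Among the endothelial transcription factors, Erg carried the second strongest peak of the members. This peak, at chr16:95599662-95600596, was 935 bp wide, wider than 98.4% of all peaks. It was 17.6-fold over control (interval 11.8 to 25.4) on 27 fragments, with the control at its background level of 0.588. It lay 13.6 kb upstream of the gene body (chr16:95359169-95586600, minus strand), outside any annotated gene, and 95.9% of all peaks were weaker. The fold intervals of Vegfa and Erg overlapped, so their strongest peaks were not ordered. The second Erg summit lay inside the gene at chr16:95439925-95440120, at 5.8-fold on 9 fragments. In its decile 26.7% of genes held 2 or more summits.

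The window before the first of 3 listed Erg starts (chr16:95586594-95586843, minus strand) is shown because the wide upstream peak did not reach it. It held no match to any of the spellings searched, which says only that these letters are not in this window. Windows before the other Erg starts are not given here.
Erg: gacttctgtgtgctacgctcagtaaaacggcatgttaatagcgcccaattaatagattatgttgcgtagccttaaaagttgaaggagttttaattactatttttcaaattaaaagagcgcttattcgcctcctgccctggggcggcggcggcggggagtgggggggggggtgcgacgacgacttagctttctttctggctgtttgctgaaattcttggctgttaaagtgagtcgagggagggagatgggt

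Ets1, a related factor, had 3 summits of similar fold. The first lay inside the gene (chr9:32636241-32757820) at chr9:32752822-32753001, at 7.66-fold (interval 4.33 to 12.7) on 13 fragments. The second lay 3.15 kb outside it, at chr9:32760824-32761111 and 6.25-fold on 13 fragments, 8.06 kb from the first. The third lay 72.8 kb outside it in the long noncoding RNA gene Gm3331, at chr9:32830456-32830732 and 7.54-fold on 12 fragments. The fold intervals of all 3 overlapped. Fli1, the neighbouring ETS gene 92.8 kb from Ets1, had no summit assigned. In the decile of Ets1, 14.6% of genes held 3 or more summits.

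Nfatc1, a calcium-regulated factor of the endocardium, had the weakest of the members' strongest peaks. Its single summit, at chr18:80625264-80625457 inside the gene (chr18:80606205-80713071), was 5.18-fold (interval 2.65 to 9.37) on 9 fragments, with a −log10 q of 3.81, and 20.9% of all peaks were weaker. A single summit or more was present at 29.2% of genes of its decile. At a minimum −log10 q of 5, Nfatc1 had no peak. The whole fold interval of its summit lay below those of the strongest Vegfa and Erg peaks.

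Npr3, which encodes a clearance receptor for natriuretic peptides, had 2 summits, both far downstream of its body (chr15:11839896-11907837, minus strand). The stronger, at chr15:11762180-11762435, was 8.64-fold (interval 4.89 to 14.3) on 13 fragments and 77.6 kb away. The other, at chr15:11745023-11745254, was 6.77-fold on 14 fragments and 94.8 kb away. The noncoding gene Gm34501 was nearer to both, at 32.7 and 15.5 kb, so Npr3 had no peak when genes of any biotype competed. With a reach of 50 kb it also had none, since both summits lay farther away than that. Cdh5 (chr8:104101613-104144504) had no summit within 100 kb, the nearest being 363 kb away at 5.6-fold, and 70.8% of the genes in its decile had none.

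**Figure D3:**
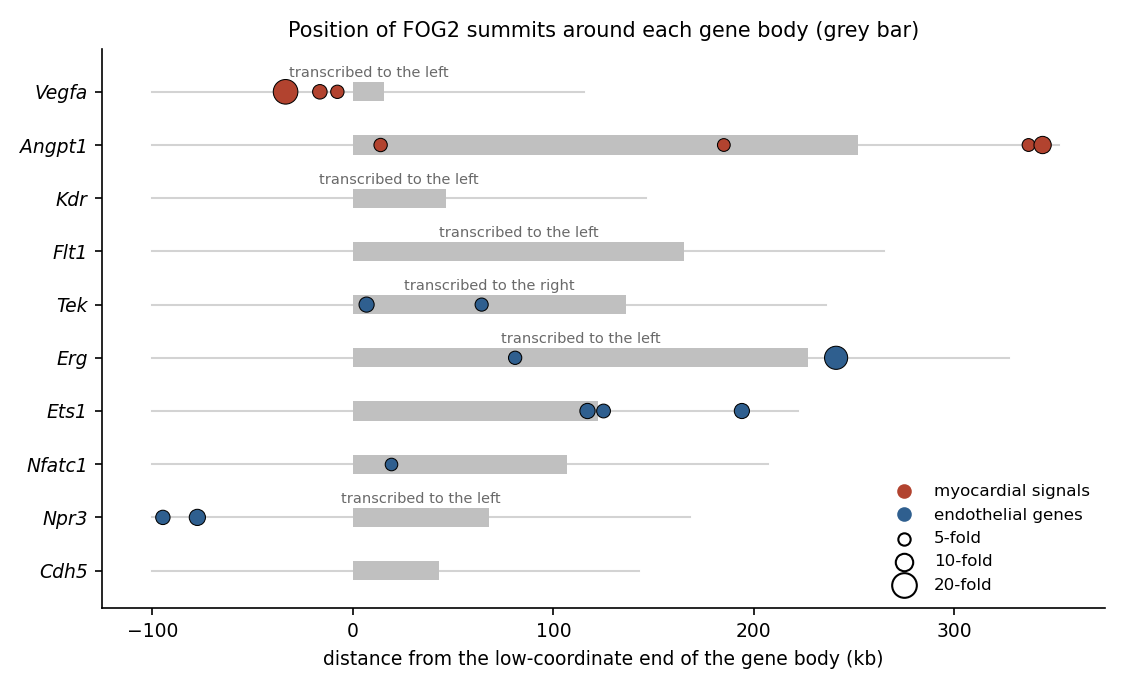
Summits (circles, area in proportion to fold) along each gene, in kb from the low-coordinate end of the gene body (grey bar), with 100 kb on either side (grey line) and the direction of transcription where RefSeq's promoter table lists it. The Vegfa and Npr3 summits all lie downstream, both Tek summits lie inside the gene, and the strong Erg summit lies 13.6 kb upstream.

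Position and spacing varied among the members. Inside a gene body lay 7 of the 17 summits (41.2%), against 45.8% of all peaks. The shares of all peaks in this paragraph are over 6166 peaks, of which 1467 (23.8%) had no gene in reach. Every member summit has a gene in reach by the rule, so these shares differ in base. No member summit was within 1 kb of a gene end, where 3.23% of all peaks lay, which puts under 1 summit in 17 there. Another summit within 10 kb was present for 6 of the 17, at Vegfa, Angpt1 and Ets1, and for 18.6% of all peaks. Proximity alone leaves unknown which gene any of these sites regulates.

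Only Vegfa and Erg reached 10-fold. In the whole set, 652 of the 21627 protein-coding genes (3.01%) had a summit of at least 10-fold. That share includes genes without a summit and is not matched for territory. Among genes with a summit the count was 652 of 2938, beside 2 of the 7 members with one. The fold interval of the strongest Vegfa peak lay wholly above those of the strongest peaks of Ets1, Nfatc1 and Tek, and overlapped those of Erg, Angpt1 and Npr3. For Erg it lay wholly above that of Nfatc1 alone. The other 5 genes with a peak were not ordered, since the fold intervals of their strongest summits overlapped. Overlap of intervals is not a test of equal folds, and each strongest fold is the highest of 1 to 4 summits.

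**Figure D4:**
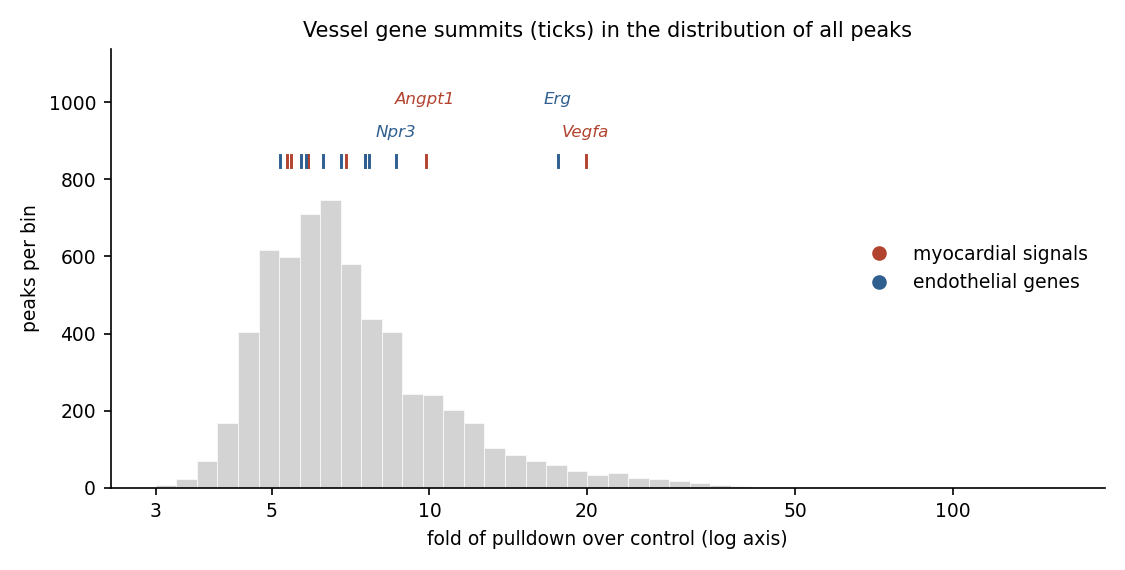
Number of peaks by fold over control on a log axis for all 6166 peaks (grey bars), with the 17 member summits as ticks above it, red for the myocardial signals and blue for the endothelial genes. Most ticks lie around the median of 6.39, and those of Vegfa at 19.9 and Erg at 17.6 lie in the upper tail.

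Other genes of vessel growth and of related pathways, among them calcineurin and natriuretic genes, were read from 9 lists. The lists held 103 genes, of which 39 (37.9%) had a summit. At the shares of their territory deciles, 22.6 would have one. They held 74 summits, where their territories would hold 38.3. Of the 39 genes with a summit, 10 reached 10-fold, beside 652 of all 2938 genes with one. The lists were chosen with earlier results of these data known, and no list was tested against others.

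The VEGF family outside the members was marked at its co-receptors and at 1 ligand, with 3 of 7 genes (1.81 from decile shares). Nrp2 and Nrp1, the neuropilin co-receptors for VEGF and semaphorins, had strongest peaks of 27.8-fold (interval 20.3 to 37.1) and 14.7-fold (10.2 to 20.6). The Nrp2 peak, at chr1:62828180-62829305, lay 10.2 kb outside its gene, and the Nrp1 peak, at chr8:128371846-128372139, lay inside. Vegfc, a ligand of lymphatic and coronary endothelium, had 3 summits, the strongest at 8.7-fold. Flt4, its receptor gene, had none, and neither did Vegfb, Vegfd and Pgf. In the angiopoietin and TIE list, 1 of 5 genes had a summit (0.641 from decile shares), Ptprb, which encodes the phosphatase that acts on TIE2, at 8.64-fold.

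Endothelial transcription factors beyond the members had a summit at 6 of 19 genes (3.61 from decile shares). Klf4, a factor that responds to blood flow and is active in many other cell types, was highest at 30.7-fold on 52 fragments, at chr4:55529653-55531032. Nr2f2, a venous and atrial factor, followed at 20.5-fold, 39.2 kb outside its gene. Mecom had 6 summits, the strongest at 8.02-fold, in a territory that would hold 1.77, and Foxo1 had 2, the strongest at 7.4-fold. Hhex and Ets2 had 1 summit each, at 6.38-fold and 4.97-fold, and the other 13 genes had none.

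Junction and surface genes of endothelium had a summit at 3 of 14 genes (2.22 from decile shares). S1pr1, the sphingosine-1-phosphate receptor gene, had 7 summits in a territory that would hold 0.484, the strongest at 12.0-fold. Acvrl1, a BMP receptor of endothelium, and Pecam1, an adhesion molecule, had 1 each at 6.5-fold and 5.31-fold.

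Signals of coronary arteries, veins and the coronary plexus had a summit at 8 of 18 genes (4.41 from decile shares). Bmp10, a ligand made in heart muscle, was highest, on 27 fragments and with a fold interval of 8.39 to 18.0. The chemokine receptor gene Cxcr4 followed at 11.2-fold, with its summit 55.2 kb outside the gene. Dach1, which encodes a nuclear factor of coronary artery growth, had 2 summits up to 8.92-fold. Cxcl12, the ligand of CXCR4, had 5 summits up to 7.22-fold in a territory that would hold 0.534. Apln and Aplnr, and the Notch genes Dll4, Notch1 and Jag1, had none.

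The list of secreted growth factors had the highest share, 9 of 17 genes, but its territories alone would give 5.8 genes. It held 16 summits, where its territories would hold 13.4. The 9 genes include Fgf12, whose protein is an intracellular FGF and is not secreted. Tgfb2 led at 12.8-fold, followed by the semaphorin genes Sema3d at 9.92-fold and Sema3c at 8.8-fold, and Thbs1, an inhibitor of vessel growth, at 7.66-fold. The Thbs1 summit lay 72.5 kb outside its gene. Hypoxia genes had 3 of 8 (1.11 from decile shares). They were Hif3a at 11.8-fold inside its gene, the oxygen sensor gene Egln3 at 5.54-fold and Hif1a at 4.96-fold. The Egln3 and Hif1a summits lay 83.3 and 54.5 kb outside their genes. Vegfa is a known target of the hypoxia factors.

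Genes of calcineurin and NFAT, the pathway of Nfatc1, had a summit at 4 of 8 genes (2.16 from decile shares). They were Rcan2 at 9.79-fold, the calcineurin subunit gene Ppp3ca at 8.53-fold, Nfatc3 at 8.02-fold and Rcan1 at 4.96-fold. In the natriuretic list, which holds the ligands of the receptor encoded by Npr3, 2 of 7 genes had a summit (0.817 from decile shares). Corin, which encodes the protease that activates these peptides, was at 12.4-fold and Nppb at 7.97-fold, while Npr1 and Npr2 had none.

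**Figure D5:**
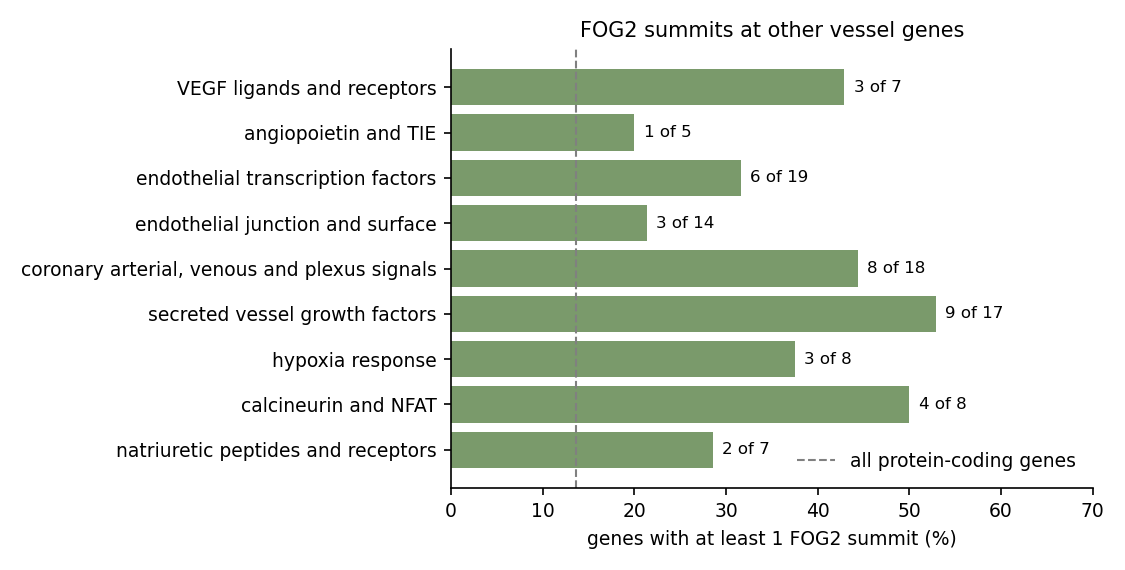
Share of genes with at least 1 FOG2 summit in each of 9 lists of vessel and related pathway genes (bars, in %, with counts at their ends), beside the share of all protein-coding genes (dashed line, 13.6%). The shares run from 20.0% in the angiopoietin and TIE list to 52.9% in the list of secreted growth factors. Territory width is not removed from these bars.

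Markers of the tissue's cell types were read the same way, although a peak is not a measure of expression. All 6 markers of ventricular muscle (Myl2, Myl3, Myh7, Irx4, Tnnt2, Actc1) had a summit, where the shares of their territory deciles would give 0.567. Of 6 endothelial and endocardial markers 2 had one (Pecam1, Npr3; 1.72 from decile shares), and of 4 epicardial markers 2 (Wt1, Tbx18; 1.13). Npr3 counts here only through its summits 77.6 and 94.8 kb away, which were lost with a reach of 50 kb. None of 4 erythroid markers had one (0.347). The share over all protein-coding genes was 13.6%, and differences between these marker lists were not tested. The share of each cell type in the ventricles was not measured, and its part in the counts at endothelial genes was not tested.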

How the data were processed

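Per the labels' protocols, FOG2 was recovered with its DNA on streptavidin from formaldehyde-fixed ventricles (1% for 10 minutes). Sequencing covered 2 pulldown libraries and 1 input library. The authors deposited a single peak list for the pooled pulldown, filtered against blacklisted regions per its name. That name also reads FLAG, while the protocols describe streptavidin. Bowtie2 2.3.2, SAMtools 1.5, Picard, MACS2 2.1.1 and mm10 are listed by the submitters' processing notes; their settings were not given in the sources used here. At each summit the authors' fold is the linear ratio of pulldown over control. The deposited −log10 p and −log10 q are the caller's for that summit. The deposited score repeated the −log10 q, times 10 and cut to whole numbers, in 100% of peaks and was not used. Other columns gave the summit's position.

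Summits went to the closest body among 21627 protein-coding genes (RefSeq, GRCm38.p6), within 100 kb. Tied genes, at 22 summits, each received it, and 1467 summits had no gene in reach. Territory was measured on a 1 kb grid and split into 10 deciles. Whole fragments were solved from the fold, whose 2 sides each had 1 added as in MACS2, and the −log10 p as a Poisson tail. They matched within 0.001 in 100% of peaks. The median summit held 12 fragments, so single folds carry wide counting error. Intervals are exact 95% Poisson intervals, with PCR copies not separated. Total depth per library is not used here. Assignment and recovery were tested on simulated data. With 1 pooled list, no test between groups was made.

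The members and lists were chosen with earlier results of these data known. All 10 members are named, and in each list the genes with the highest folds, at most 4. List genes named as having no summit were chosen after their values were seen. Peak sequences were not analysed here, so motifs were read in promoters only, of 6 members. Other settings tried were minimum −log10 q or fold, the stronger 50% of peaks, a reach of 10 or 50 kb, genes of any biotype, gene ends, all genes in reach, the peak's middle, and close summits counted once. Python 3.11.15, numpy 2.4.6, pandas 2.3.3, scipy 1.17.1 and matplotlib 3.10.9 were used.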

Additional observations from a re-analysis of the deposited data

How the results depend on the processing

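Vegfa, Angpt1, Tek, Erg and Ets1 kept at least 1 summit, and Kdr, Flt1 and Cdh5 none, in all 10 alternative settings. Counting summits within 10 kb as 1 was added after the data were seen. The number of summits at the members, 17, fell to 11 with 5 as the least −log10 q and to 9 both in the stronger 50% of peaks and within 10 kb of gene bodies. Those of the 2 myocardial signals, 7, became 4, 3 and 3 in that order. Those of the 8 endothelial genes, 10, became 6 in the stronger 50% and 6 within 10 kb. Strongest folds within 10 kb were 5.86 at Vegfa, 5.87 at Angpt1 and 5.8 at Erg. Angpt1 was also at 5.87 within 50 kb and with genes of any biotype. Nfatc1 had no value with 5 as the least −log10 q or in the stronger 50%, and Npr3 had none within 10 kb, within 50 kb or with genes of any biotype. The 39 list genes with a summit became 25 in the stronger 50% of peaks. They became 59 when every gene within 100 kb of a summit was counted. The share of all protein-coding genes became 8.01% and 33.3% in that order. Each of these settings by its construction removes peaks, shortens the reach or changes which genes compete. The other 100 values were within 1.5 times of the counts reported or inside the counting interval of the fold. No paired analysis was possible because the replicates were pooled before deposit, and no replicate could be left out. Depth limits the order of single peaks near the median of 12 fragments.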

Other observations

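The ETS genes of this set lie next to relatives that differed in occupancy. Ets2, an ETS factor gene next to Erg, had a single summit of 4.97-fold (interval 2.37 to 9.59) on 7 fragments, 39.2 kb outside the gene. Fli1, next to Ets1, had none. The strongest Erg summit lay 13.6 kb from Erg and 102 kb from Ets2. These genes were chosen after their values were seen, and the differences were not tested.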
